A study of Homo sapiens with 6 samples.

Results

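The 41 genes described here carry out homologous recombination, the repair of DNA crosslinks by the Fanconi pathway, the sensing of DNA damage and the rejoining of broken ends. They were taken by gene symbol from a count table of 58735 genes, and all 41 were present and deep enough to test among the 17743 genes tested. The cells were Het1A, human oesophageal epithelial cells made immortal by the large T antigen of SV40. The study asked how daily brief exposure to acid with bile acids, as in reflux from the stomach, alters expression. The 3 bile acid libraries came from cells given acidified medium of pH 4.0 for 10 min each day on 5 days, with 100 µM of a mixture of deoxycholic acid and glycine and taurine conjugates of bile acids. The 3 control libraries came from cells given the vehicle, 0.1% DMSO. Serum was lowered to 1% for both groups 48 h ahead of treatment, and all cells were harvested 24 h after the last exposure. The labels do not say that controls were put in acid medium, so acid and bile acids cannot be told apart. All libraries come from this 1 line, and its large T antigen is known to bind p53 and the RB proteins.

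Homologous recombination repairs a broken chromosome by copying the sister chromatid. BRCA1 with its partner BARD1 acts at the break, the ends are trimmed to single strands, and BRCA2, brought in by PALB2, prepares them for strand exchange. The Fanconi core complex adds ubiquitin to the pair FANCD2 and FANCI at a crosslink, which brings in nucleases and then recombination. The kinase ATM answers breaks and the kinase ATR answers bare single strands, and they activate CHEK2 and CHEK1, which hold the cell cycle. Breaks can also be rejoined directly, through the Ku proteins XRCC5 and XRCC6, the kinase PRKDC and the ligase LIG4. Bile acids at low pH are known to damage DNA in oesophageal cells, and many of these genes are transcribed mostly in dividing cells, under E2F factors that the RB proteins hold back.

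The promoters of 36 of the 41 genes were found in RefSeq windows on GRCh38.p14 that run from 250 bases before to 50 bases after the gene start. No window was found for WRN, PRKDC, NBN, FANCI or XRCC5. The windows were searched on both strands for 3 strings that E2F factors are known to bind, TTCCCGCC, TTTGGCGC and TTTCGCGC, which were chosen after promoters of these genes had been looked at. A match was present in 13 of the 36 genes (36.1%), against 5.11% of the 27305 genes with a window, counting a gene once over all its windows. Of the 35116 windows, 4.24% had one. Among 30 genes of S phase and proliferation described below, 24 had a window and 13 of these had a match. A match was thus not particular to the repair and checkpoint genes. Of the 13 repair and checkpoint genes with a match, 7 that are described with their values in the following are printed. They are shown with 10 bases on either side of the string, which is in capitals. The XRCC6 window ends with the string.

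FANCD2: cgtcgggcctGGCGGGAAagtcgaaaac
FANCC: cggggcttccGCGCGAAAccgggaacac
XRCC3: ggagcaggacGGCGGGAAgaggagtgcg
EXO1: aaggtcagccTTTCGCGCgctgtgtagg
CLSPN: actctggctgGGCGGGAAagcaagaaca
TOPBP1: cgcgcggttgGCGCGAAAgtcggttccc
XRCC6: tcgcttccctGCGCCAAA

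The FANCD2 sequence lies at chr3:10026424-10026451 on the plus strand and its string starts 3 bases before the gene start. That of FANCC lies at chr9:95317864-95317891, that of XRCC3 at chr14:103715437-103715464, that of CLSPN at chr1:35769967-35769994 and that of TOPBP1 at chr3:133661931-133661958, all 4 on the minus strand. The EXO1 sequence lies at chr1:241848198-241848225 and that of XRCC6 at chr22:41621327-41621344, both on the plus strand. The other 6 genes with a string were BLM, BRIP1, FANCL, RAD51AP1, RAD54L and XRCC2. A match is a description of the letters, not a sign that a factor was bound. Of the 36 genes, the 13 with a string had a median log2 fold change of 0.01, and the 23 without had one of -0.005. The box CCAAT (or ATTGG) was present in 20 of the 36 genes (55.6%) against 39.7% of all genes with a window, and the string TTTGAA (or TTCAAA) in 4 (11.1%) against 18.2%.

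None of the 41 genes differed between bile acid and control cells past the test. In the fit of all 17743 genes with edgeR's quasi-likelihood test, 0 of the 41 were called at a Benjamini-Hochberg adjusted p under 0.05, where 0% of all genes were called. Their lowest adjusted p was 0.911. At an unadjusted p under 0.05 the count was also 0 of 41, against 588 of all genes (3.31%). DESeq2 called 0 of the 41, against 18 of 17782 genes (0.101%). Log2 fold changes of bile acid over control ran from -0.46 (RAD51C) to 0.49 (ATM), 22 above and 19 below 0. Their median was 0.02, beside -0.01 over all genes tested. For 31 of the 41 genes the 95% interval of the fold change excluded a 2-fold change in either direction. The libraries are bulk RNA, so less RNA per cell and fewer cells in S or G2 phase cannot be told apart.

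Libraries held 21006677 to 28497721 counts, and control 2 stood apart from the others. Its values were the lowest of the 6 libraries for 23 of the 41 genes (56.1%) and the highest for 9 (22.0%), against 41.8% and 36.4% of all genes. Of the epithelial markers, KRT8, KRT18, KRT19, EPCAM and CDH1 had reads in every library, while TP63 had 2 reads in all and KRT5 no more than 12 in any library. The mesenchymal markers VIM, CDH2 and FN1 also had reads in all 6 libraries. Of the 5 fibroblast markers, COL1A1 had 22840 reads in all and PDGFRB 2710, while DCN had 41, COL1A2 2 and COL3A1 0. The defining markers PTPRC, CD3E and CDH5 of leukocytes and endothelium were at 0 throughout. Results are therefore given with all libraries and without control 2. Leaving it out, edgeR called 0 of the 41 genes (1 of all 18274 genes, 0.00547%) and DESeq2 called 0 (155 of 15302, 1.01%). At an unadjusted edgeR p under 0.05 the count was then 2 of 41, against 1395 of the 17743 genes tested in both fits. The interval then excluded a 2-fold change for 40 of the 41, with RAD50 the exception. The median log2 fold change became -0.08, with 13 genes above and 28 below 0, beside 0.01 over the same genes of the whole table. The direction of 15 genes changed, 12 from above 0 to below and 3 the other way.

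**Figure D1:**
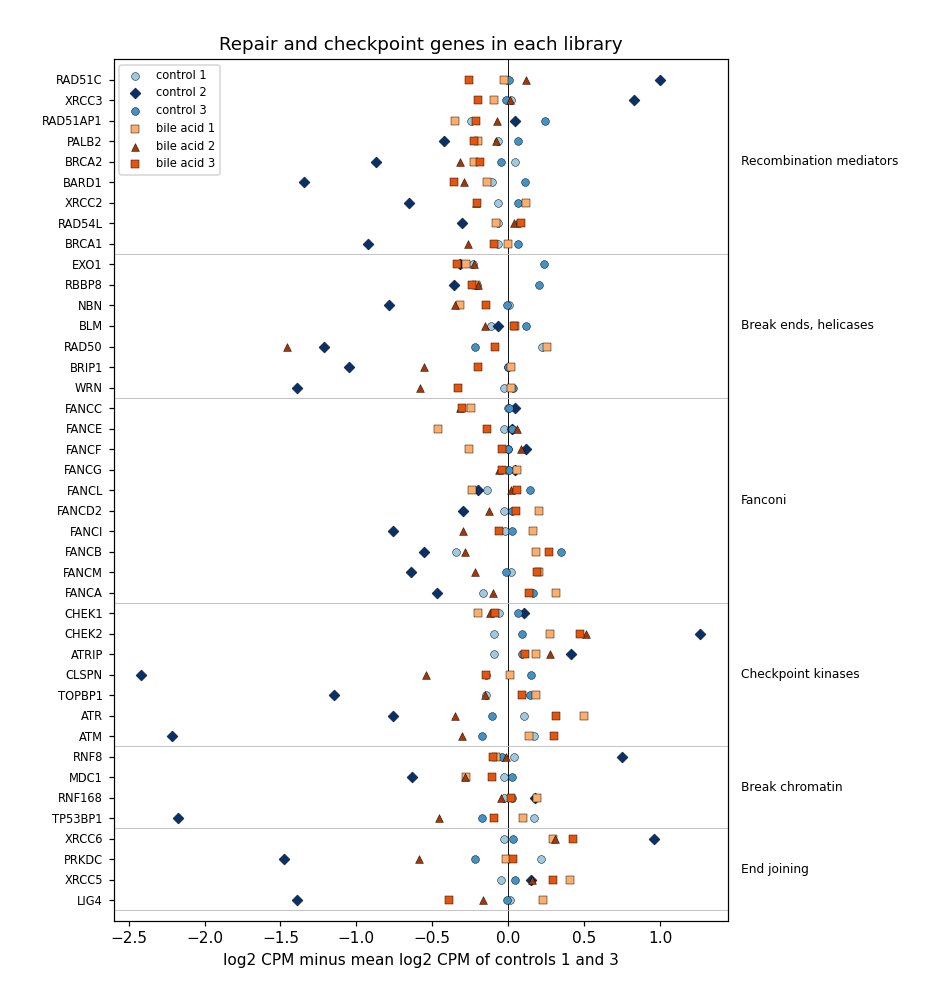
Log2 CPM of each of the 41 genes in each library, as the difference from the mean log2 CPM of controls 1 and 3; rows are genes grouped by role and symbols are libraries. The diamonds of control 2 lie between -2.42 and 1.27, far from the other libraries for CLSPN, ATM, TP53BP1 and CHEK2.

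The genes that carry out strand exchange showed no called difference, and only 1 of these 9 lay above 0 once control 2 was left out. Levels are given as CPM, read counts scaled to the depth of each library with TMM factors, in the order of replicates 1, 2 and 3. BRCA1, which starts the choice of recombination at a break, had 181, 99.6 and 197 CPM in controls and 189, 157 and 177 CPM in bile acid libraries. The groups overlapped, with control 2 alone below 150 CPM, and the log2 fold change was 0.13 (SE 0.28). For BRCA2 the controls had 59.6, 31.5 and 55.9 CPM and the bile acid libraries 49.3, 46.2 and 50.7 CPM. The bile acid values lay between the low control 2 and the other controls, at a log2 fold change of -0.01 (SE 0.26), or -0.23 (SE 0.13, edgeR adjusted p 0.727) without control 2. RAD51C, which helps to prepare single strands for exchange, had the lowest fold change of all 41. Its controls had 58.8, 118 and 59.1 CPM and its bile acid libraries 57.9, 64.1 and 49.2 CPM. Only control 2 was high, and the log2 fold change of -0.46 (SE 0.31) was -0.04 (SE 0.15) without it.

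Among the other genes of this class, XRCC3, which forms a complex with RAD51C, had the same shape, with 132 CPM in control 2 and 65.0 to 75.4 CPM in the other libraries. BARD1 went the opposite way in that library, at 27.7 CPM beside 54.7 to 75.7 CPM elsewhere. The remaining ones, PALB2, XRCC2, RAD51AP1 and RAD54L, had log2 fold changes from -0.24 (RAD51AP1) to 0.11 (RAD54L). The median over the 9 genes was -0.01, and -0.11 without control 2. All 3 bile acid libraries then lay below both remaining controls for BRCA2, BARD1 and PALB2, as they did for 12.1% of genes in the whole table.

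Genes that trim break ends or unwind DNA had the narrowest range of log2 fold changes with all libraries, -0.19 to 0.05, and all 7 lay below 0 when control 2 was left out. RAD50 belongs to the complex that tethers broken ends. It had 12.8, 4.70 and 9.42 CPM in controls and 13.2, 3.95 and 10.4 CPM in bile acid libraries. The low values were in replicate 2 of both groups, and the groups overlapped throughout (log2 fold change 0.02, SE 0.51). EXO1, the nuclease that extends trimming, had 129, 122 and 178 CPM against 125, 129.8 and 120.4 CPM. Control 3 alone was high, and the log2 fold change was -0.19 (SE 0.20). The helicase WRN, lost in Werner syndrome, had 23.7, 9.18 and 24.7 CPM in controls and 24.5, 16.1 and 19.2 CPM in bile acid libraries. Its log2 fold change of 0.05 (SE 0.38) was the highest of this class with all libraries and -0.27 (SE 0.20) without control 2.

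The other members of this class were NBN, the partner of RAD50, the trimming factor RBBP8 (CtIP), and the helicases BLM and BRIP1. BLM was the steadiest, at 102 to 123 CPM over the 6 libraries. BRIP1 was 39.4 CPM in control 2, 55.7 CPM in bile acid library 2 and 71.3 to 82.7 CPM in the rest. For the 7 genes the median log2 fold change was -0.002, and -0.26 without control 2, where values ran from -0.29 (EXO1) to -0.02 (BLM). The lowest adjusted p of the 7 was then 0.674 (edgeR, NBN), so none passed.

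In the Fanconi pathway FANCC held the lowest unadjusted p of all 41 genes, 0.0966 by edgeR. This subunit of the core complex lies at chr9:95099054-95426796 on GRCh38. It had 37.6, 38.9 and 37.8 CPM in controls and 31.8, 30.2 and 30.5 CPM in bile acid libraries. The groups did not overlap, at 38.1 ± 0.704 CPM in controls and 30.8 ± 0.855 CPM in bile acid libraries (SD, n = 3). The log2 fold change was -0.30 (SE 0.16, 95% interval -0.68 to 0.07, edgeR adjusted p 0.911), and -0.28 (SE 0.14, adjusted p 0.676) without control 2. The bile acid libraries lay below the controls for FANCC under every scaling, filter and left-out library for which values per library were computed, yet no setting called it. All 3 bile acid libraries were below all 3 controls for 2 of the 41 genes, FANCC and CHEK1, against 868 genes (4.89%) of the whole table, so the count is near the background.

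FANCD2 and FANCI form the clamp that is marked with ubiquitin at a crosslink. FANCD2 had 94.5, 78.3 and 98.0 CPM in controls and 111, 88.3 and 99.7 CPM in bile acid libraries (log2 fold change 0.14, SE 0.19). FANCI had 272, 163 and 281 CPM in controls and 310.3, 225 and 266 CPM in bile acid libraries (log2 fold change 0.16, SE 0.26). In both genes replicate 2 was the lowest of its group. Per length, the FPKM of FANCD2 was 0.322, 0.445 and 0.323 times that of FANCI in controls and 0.332, 0.364 and 0.348 times in bile acid libraries, so the pair kept a similar ratio in all but control 2.

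The highest fold change of the Fanconi genes was that of FANCA, a core subunit often mutated in Fanconi anaemia. It had 42.9, 34.8 and 54.0 CPM against 59.8, 45.0 and 52.9 CPM, which overlap (log2 fold change 0.26, SE 0.22). FANCG, its partner in the core complex, was the steadiest of all 41 genes, with a highest value 1.09 times its lowest. The remaining genes are the core subunits FANCB, FANCE and FANCF, the ubiquitin ligase FANCL and the translocase FANCM. Their log2 fold changes ran from -0.17 (FANCE) to 0.25 (FANCM). Over all 10 Fanconi genes the median was 0.08, and -0.02 without control 2. The 95% interval excluded a 2-fold change for each of the 10, also with all libraries.

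**Figure D2:**
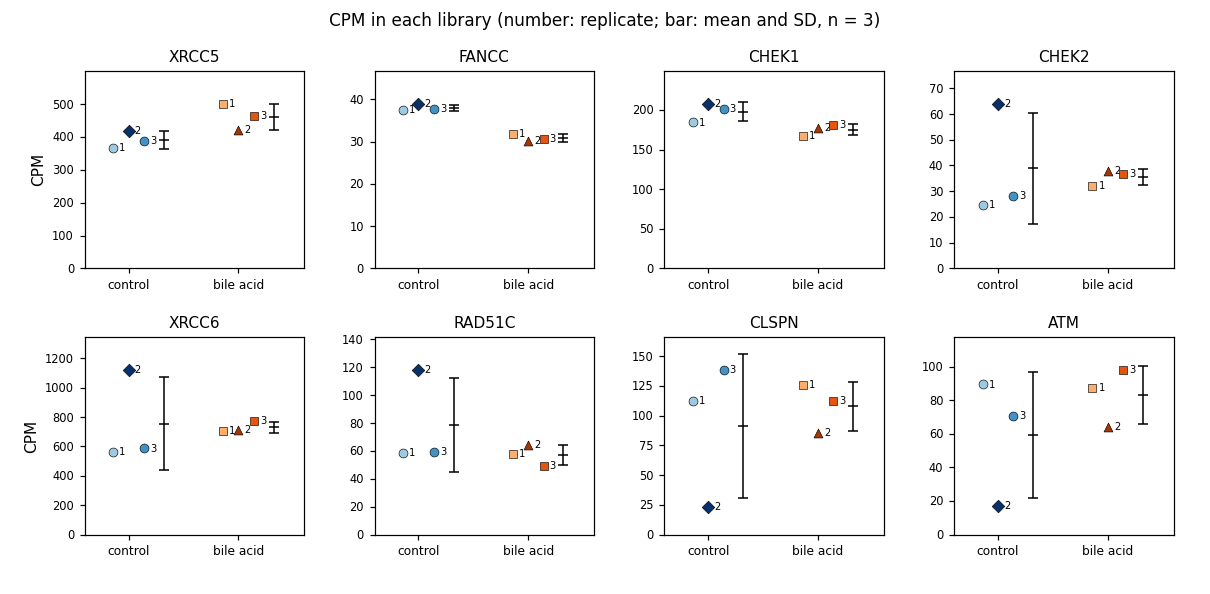
CPM of 8 genes in the 3 control and 3 bile acid libraries; numbers give the replicate, and the bars the mean and SD (n = 3). XRCC5 lies higher and FANCC and CHEK1 lie lower in every bile acid library, while control 2 sets the spread of CHEK2, XRCC6, RAD51C, CLSPN and ATM.

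Among the sensors and kinases of the checkpoint, the highest fold changes rested on low values in control 2. ATM, which starts the response to breaks, had 89.3, 17.1 and 70.6 CPM in controls and 87.4, 64.3 and 97.8 CPM in bile acid libraries. Control 2 was at 21.4% of the mean of the other controls, and the log2 fold change of 0.49 (SE 0.53) was 0.07 (SE 0.19) without it. ATR had 33.9, 18.6 and 29.3 CPM against 44.5, 24.7 and 39.1 CPM. Replicate 2 was the lowest in both groups, and the log2 fold change was 0.40 (SE 0.31), or 0.20 (SE 0.23) without control 2. The adaptor CLSPN (claspin), which passes the signal of ATR to CHEK1, had 112, 23.3 and 138 CPM against 126, 85.6 and 113 CPM. It had the widest spread of all 41, with control 2 at 18.6% of the other controls, and is given in full because of that value.

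CHEK1 and CHEK2, the kinases that hold the cell cycle, both had fold changes below 0 with all libraries, and without control 2 that of CHEK2 was above 0. CHEK1 lies at chr11:125625136-125676255. It had 184, 207 and 201 CPM in controls and 168, 177 and 181 CPM in bile acid libraries, and the groups did not overlap. The difference was small, with a log2 fold change of -0.17 (SE 0.16, 95% interval -0.56 to 0.21, edgeR adjusted p 0.911). With the length trend of each library removed, or with scaling by library size alone, the groups of CHEK1 overlapped. CHEK2 lies at chr22:28687743-28742422. It had 24.8, 63.8 and 28.3 CPM against 32.1, 37.8 and 36.7 CPM, so control 2 was at 240.5% of the other controls and every bile acid library lay between it and them. Its log2 fold change was -0.13 (SE 0.36) with all libraries and 0.43 (SE 0.16, 95% interval 0.08 to 0.78) without control 2. That value had an unadjusted p of 0.021 and an adjusted p of 0.545 (edgeR), and it did not pass.

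ATRIP, the partner through which ATR binds single strands, was 14.6 to 20.7 CPM in the 6 libraries, with control 2 the highest. TOPBP1, the activator of ATR, was 77.3 CPM in control 2 and 154 to 194 CPM elsewhere. The median log2 fold change of the 7 checkpoint genes was 0.24, the highest of the 6 classes, and 0.07 without control 2. The interval excluded a 2-fold change for 3 of the 7 genes with all libraries, and for all 7 without control 2.

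Of the genes whose proteins mark the chromatin around a break, TP53BP1, RNF8 and MDC1 were again set apart by control 2, and RNF168 was not. TP53BP1, which shields ends from trimming, had 53.2, 10.4 and 41.9 CPM in controls and 50.4, 34.5 and 44.2 CPM in bile acid libraries. Control 2 was at 21.9% of the other controls, and the log2 fold change went from 0.29 (SE 0.52) to -0.13 (SE 0.18) when it was left out. The ubiquitin ligase RNF8 had 46.1, 75.2 and 43.5 CPM against 42.4, 44.3 and 41.9 CPM. It lay within 1.10-fold in the 5 other libraries, so its log2 fold change of -0.36 (SE 0.24) was -0.05 (SE 0.14) without control 2. RNF168, the ligase that acts after RNF8, was 38.7 to 45.6 CPM, and the scaffold MDC1 was 87.0 CPM in control 2 and 111 to 138 CPM elsewhere. The median of these 4 genes was -0.02, and -0.09 without control 2.

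End joining held the most abundant of the 41 genes, and XRCC5 was the single gene whose bile acid libraries all lay above all controls (939 genes, 5.29%, did so in the whole table). XRCC5, the larger Ku subunit, at chr2:216107464-216206303, had 365, 418 and 389 CPM in controls and 499.6, 421 and 463 CPM in bile acid libraries. The gap between control 2 and bile acid library 2 was narrow, and the groups overlapped with RLE scaling, with a filter of 1 CPM or with the length trend removed. The log2 fold change was 0.24 (SE 0.18, 95% interval -0.18 to 0.66), and 0.30 (SE 0.14, edgeR adjusted p 0.648) without control 2. This gene is given in full because its groups did not overlap. Its partner XRCC6, the smaller Ku subunit, at chr22:41621119-41664048, had 563, 1118 and 586 CPM against 704, 710.1 and 774 CPM. Control 2 was at 194% of the other controls, and the bile acid values lay between. Without it the log2 fold change was 0.35 (SE 0.14, 95% interval 0.05 to 0.66, unadjusted p 0.0275, edgeR adjusted p 0.566), and with it -0.05 (SE 0.30).

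PRKDC, the kinase that Ku activates at a broken end, had 537, 166 and 396 CPM in controls and 457, 306 and 471 CPM in bile acid libraries. Replicate 2 was the lowest of both groups, and the log2 fold change was 0.17 (SE 0.42). LIG4, the ligase that seals the break, had 18.7, 7.06 and 18.5 CPM against 21.9, 16.6 and 14.2 CPM. Its log2 fold change was 0.25 (SE 0.39), the highest of the 4, and -0.08 (SE 0.21) without control 2. The class had a median of 0.20 with all libraries and 0.11 without control 2.

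With control 2 left out, 4 genes had all bile acid libraries above both controls, CHEK2, ATRIP, XRCC5 and XRCC6, against 12.6% of genes in the whole table. The 7 below were BRCA2, BARD1, PALB2, NBN, FANCC, CHEK1 and MDC1, against 12.1%. As a share of the 41, the first count lies below its background and the second above it, and no gene among them was called. Leaving out bile acid library 2 instead also gave 4 and 7, but other genes. ATR, FANCD2, FANCM and XRCC5 were then above and CHEK1, FANCC, FANCE, FANCF, RAD51C, RNF8 and XRCC3 below. The share over all genes was not taken without bile acid library 2, so these counts cannot be set against a background. XRCC5, FANCC and CHEK1 stood on the same side whichever library was left out.

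**Figure D3:**
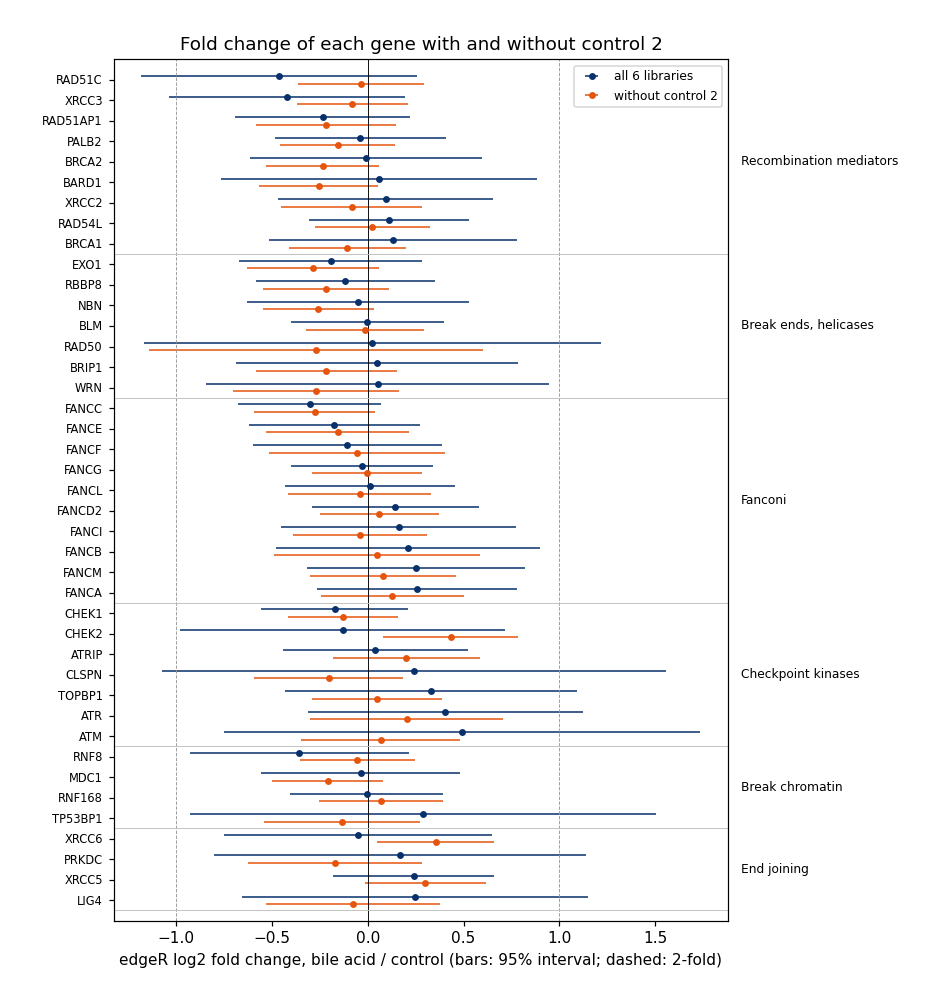
Log2 fold change of bile acid over control for each gene from edgeR, with bars for the 95% interval; dark points use all 6 libraries and orange points leave out control 2. All intervals include 0 with all libraries, and those of CHEK2 and XRCC6 exclude it without control 2, before adjustment for the genes tested. Without control 2, 1395 of the 17743 genes tested in both fits had an unadjusted edgeR p under 0.05.

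How far control 2 lay from the other controls varied with gene length. Over the 41 genes, Spearman's rho between exonic length and the log2 difference from controls 1 and 3 was -0.44 in control 2 and -0.60 in bile acid library 2, while it was 0.23 and 0.09 in bile acid libraries 1 and 3. Over the 12081 tested genes that averaged 5 CPM or more the same values were -0.50, -0.47, 0.12 and -0.05, so the trend was not particular to these genes. These are descriptions across genes that share the libraries. The 14 longest genes, from 7766 to 23972 bases, had a median control 2 level of 56.7% of the other controls, and the 14 shortest, from 2412 to 5091 bases, one of 83.7%. The 13 genes between, from 5347 to 7507 bases, had the highest median, 108%. Length alone did not order the genes. CLSPN, with 5411 bases of exon, had the lowest value, and FANCC, with 12809 bases, had 103%.

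The fold changes also differed between the longest and the shortest genes. The 14 longest genes had a median log2 fold change of 0.15, with 11 above 0, and the 14 shortest one of -0.05, with 5 above 0. The 13 genes between had a median of -0.002, with 6 above 0. Without control 2 the medians were -0.12 for the longest, -0.07 for the shortest and -0.05 for those between. Across the 41 genes rho between length and fold change was 0.37 with all libraries, -0.08 without control 2 and 0.09 with the length trend removed. The part of RNA quality or of the library preparation in these patterns was not tested.

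**Figure D4:**
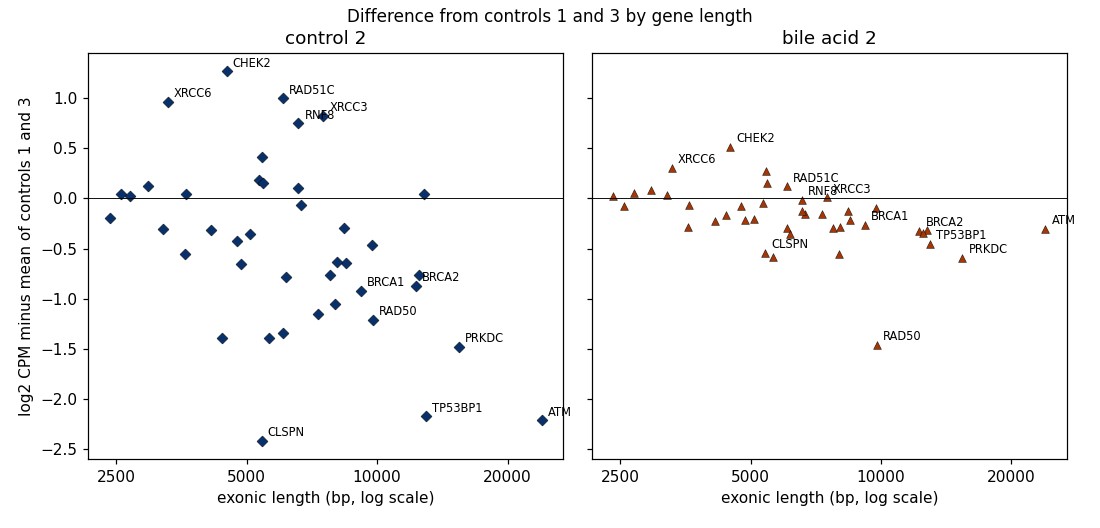
Log2 CPM of each of the 41 genes in control 2 (left) and bile acid library 2 (right) as the difference from the mean of controls 1 and 3, against exonic length on a log scale. In both panels many long genes lie below 0, with rho of -0.44 and -0.60, and CLSPN lies far below genes of its length in control 2.

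Compared per length, as FPKM averaged over the 5 libraries other than control 2, the genes spanned a wide range. XRCC6 was highest at 174 FPKM (150 to 201 in single libraries) and XRCC5 next at 67.3 FPKM (58.5 to 77.8), with no overlap between these 2 or with the rest. The following group overlapped in its ranges, with FANCI at 30.0 FPKM, EXO1 at 28.4, PRKDC at 24.2, CHEK1 at 23.9, RBBP8 at 23.6 and RAD51AP1 at 23.5 FPKM. The kinases that start the checkpoint were low, with ATM at 2.94 FPKM (2.28 to 3.48) and ATR at 2.36 FPKM (1.68 to 3.03), beside CHEK2 at 6.11 FPKM (4.84 to 7.17). BRCA2 was at 3.67 FPKM and its partner PALB2 at 9.65 FPKM. RAD50 was lowest at 0.877 FPKM (0.344 to 1.15), far below NBN of the same complex at 12.2 FPKM (10.5 to 13.9).

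**Figure D5:**
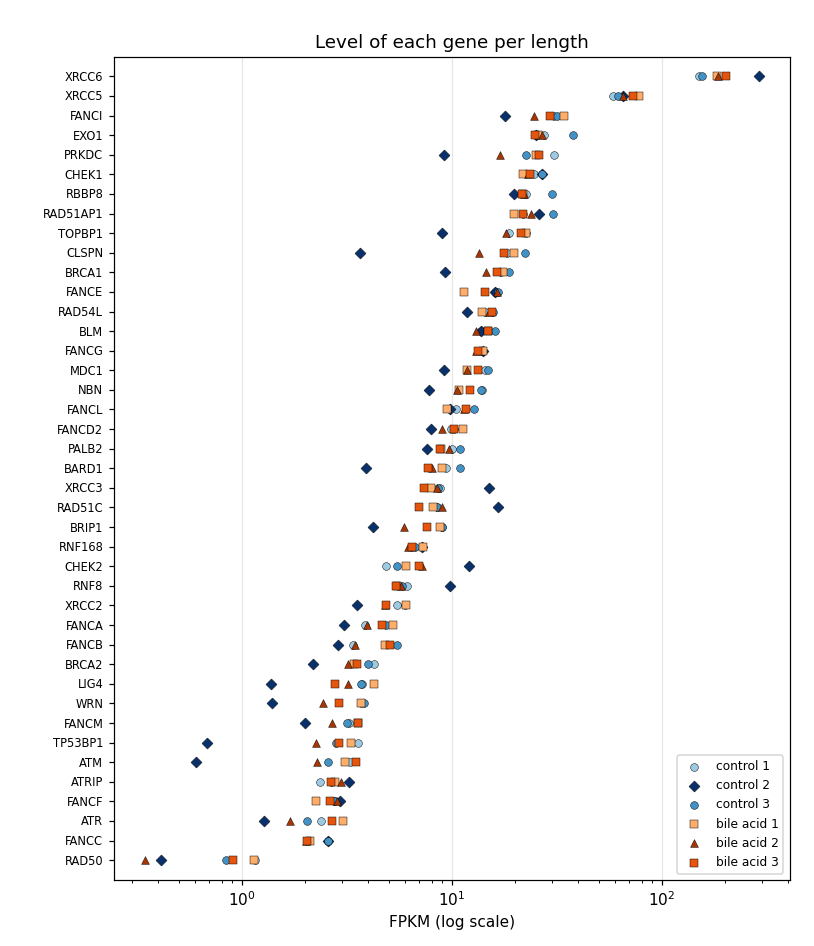
FPKM of the 41 genes in each library on a log scale, ordered by the mean over the 5 libraries other than control 2. XRCC6 and XRCC5 lie above all others, RAD50 lies lowest, and neighbours between them overlap.

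The low level of RAD50 goes with an overlap of annotated exons. In GENCODE release 29, whose gene models match the table, 79.7% of its exonic bases are shared with the gene AC116366.3 on the same strand, and the 6 libraries gave RAD50 1437 reads and AC116366.3 2 reads. XRCC3 shares 76.7% of its exonic bases with KLC1 on the opposite strand and had 12068 reads. Shares of 20% or more were also found for TP53BP1 (28.7%, with TUBGCP4), ATRIP (27.9%, with TREX1), RAD54L (25.1%, with LRRC41) and FANCA (23.6%, with ZNF276), while 17 of the 41 genes shared none. Values of these 6 genes are uncertain, since reads in shared exons may be dropped or may belong to the partner, and the sources used here do not give whether counting used strand.

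Among the 5 libraries other than control 2, the highest CPM was under 1.5 times the lowest in 30 of the 41 genes and under 2 times in 40, with a median of 1.34, beside 1.38 for the 12081 genes. With control 2 the median was 1.79, beside 1.86, and CLSPN reached 5.93. Bile acid library 2 was the lowest of those 5 libraries for 21 of the 41 genes (51.2%), against 23.7% of all genes. For 31 of the 41 it lay below the mean of controls 1 and 3, against 5889 of the 12081 genes.

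Other genes of the same pathways were read from a list of 95, of which 92 were tested. None was called by edgeR, DESeq2 or limma-voom, their median log2 fold change was -0.01, and 45 lay above 0 and 47 below. The smallest p was that of TTK, a spindle checkpoint kinase listed with the checkpoint genes. It had 72.8, 58.7 and 73.2 CPM in controls and 97.5, 87.6 and 104 CPM in bile acid libraries, without overlap (log2 fold change 0.50, SE 0.18, unadjusted p 0.0272, edgeR adjusted p 0.911). The next were SFR1, a helper of strand exchange, at a log2 fold change of -0.76 (SE 0.33), and H2AFX, the histone that ATM marks at breaks, at 0.37 (SE 0.17). WEE1, which keeps CDK1 inactive, followed at 0.36 (SE 0.17), and TOP3A, the topoisomerase that works with BLM, at -0.40 (SE 0.19). In all 4 the groups did not overlap and none passed. Without control 2, SFR1 was at -0.31 and H2AFX, WEE1 and TOP3A at 0.36, 0.37 and -0.28.

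Since most of the 41 genes are expressed in dividing cells, 30 genes of S phase and proliferation were read beside them. Their median log2 fold change was 0.18 with 20 above 0, and 0.15 with 24 above 0 without control 2. edgeR called none in either case. MKI67, the proliferation marker, had 592, 312 and 543 CPM in controls and 549, 413 and 582 CPM in bile acid libraries. PCNA, the replication clamp, had 192, 409.7 and 237 CPM against 241, 289.7 and 238 CPM. Control 2 was the lowest library for the first and the highest for the second, and both overlapped between groups. The 5 with the smallest p were RRM2 (0.65, SE 0.34), TYMS (0.60, SE 0.35), CDK1 (0.29, SE 0.17), BUB1 (0.42, SE 0.25) and E2F1 (-0.50, SE 0.32), given as log2 fold changes. Of the 30 genes, 6 had all bile acid libraries above all controls, TYMS, CDK1 and BUB1 among them, against 5.29% of all genes. The count below was 0, against 4.89%. RRM2, which makes deoxynucleotides, was the single one called anywhere, by DESeq2 without control 2 (adjusted p 0.0133), where edgeR gave a log2 fold change of 0.99 (SE 0.26) and an adjusted p of 0.347. The part of proliferation in the values of the 41 genes was not tested.

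The authors' deposited table of gene tests, made from another count of the same libraries, called 0 of the 41 genes at an adjusted p under 0.05, among 19 of 22164 genes. In the authors' deposited table the lowest p of the 41 was 0.186 and the median log2 fold change 0.03, with 24 above 0. The authors' deposited table of Gene Ontology terms lists DNA damage checkpoint signaling with a normalized enrichment score of 1.68 and an adjusted p of 0.00333. Of the 41 genes, 3 (ATM, ATR and TOPBP1) are among its 36 leading genes. The same 3 are among the 59 leading genes of signal transduction in response to DNA damage (score 1.91, adjusted p 6.86e-06). None of the 2196 terms listed, all with an adjusted p under 0.05, is named for recombinational repair, double-strand break repair or interstrand crosslinks. ATM, ATR and TOPBP1 are the 3 genes with the highest fold changes here, and in each control 2 was the lowest of the 6 libraries. Without control 2 their log2 fold changes were 0.07, 0.20 and 0.05. The other leading genes were not examined here and the terms were not scored without control 2, so its part in these scores was not tested.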

How the data were processed

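RNA of 6 Het1A libraries, 3 control and 3 bile acid, was sequenced as paired-end reads of 150 bp, per the labels' protocols, and the labels call the replicates biological. The submitters' processing notes name the build GRCh38 and the tools HISAT2 (version 2.0.5), featureCounts and DESeq2, with no role for each. The authors deposited read counts per gene, FPKM, and normalized counts, a signal from which whole reads were recovered (100% of values within 0.001 of a whole number). Those reads cover 31530 genes and come from another counting, 1.01 to 1.08 times the count table for the 41 genes. Per the file headers, the authors' deposited comparison gives log2 fold changes, a test score and p-values, and the term table scores and p-values. A table of group means was not used, and 2 of its columns match no sample.

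Counts were tested in edgeR (version 4.0.16, under R 4.3.3) by its quasi-likelihood test, with TMM scaling, filterByExpr and Benjamini-Hochberg adjustment over all genes at 0.05, comparing bile acid with control without covariates. DESeq2 1.42.0 and limma 3.58.1 served as alternatives, and the code was tested on simulated data. Standard errors are log2 fold changes over the square root of F. Libraries held 21006677 to 28497721 counts, and a floor of 3 counts is 0.105 to 0.143 CPM. Alternatives were other scalings and filters, limma-voom, a replicate block, removal of the length trend (lowess, span 0.3), log2(FPKM + 1) and log2(FPKM + 0.1), and each library left out. DESeq2 with a library left out and tests of the recovered reads were added after the data were seen. Same-numbered libraries of the groups correlated in their deviations at 0.307, 0.382 and 0.0979, the last under the limit of 0.1, so numbers were not taken to pair them. The 41 genes, the other lists and the tests were chosen with earlier results of these data known. Values per library are given for 12 genes chosen by name, the highest and lowest fold change of each class, genes called or with p under 0.05 in a main test, and genes without overlap of groups at a log2 fold change of at least 0.3. CLSPN and XRCC5 were described in full after their values were seen, as were the genes given by range. Of the other lists, the 5 smallest p, MKI67 and PCNA are named. The value of 1 listed pathway gene is not reported here.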

Additional observations from a re-analysis of the deposited data

How the results depend on the processing

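None of the 41 genes was called in any of 26 alternative settings, 1066 values in all. The fold change of 6 genes turned past 1 standard error, in each case without control 2. With a library left out, edgeR (and DESeq2) gave log2 fold changes from -0.26 to 0.34 (-0.26 to 0.35) for BARD1, -0.27 to 0.28 (-0.27 to 0.29) for WRN, -0.22 to 0.21 (-0.21 to 0.23) for BRIP1, -0.20 to 0.67 (-0.20 to 0.68) for CLSPN, -0.37 to 0.43 (-0.35 to 0.43) for CHEK2 and -0.22 to 0.35 (-0.20 to 0.35) for XRCC6, where the lowest value of the first 4 and the highest of the last 2 are those without control 2. The count of genes with all bile acid libraries above all controls, 1 in the main fit, was 0 with a filter of 1 CPM, with RLE scaling and with the length trend removed, and 1 to 4 with a library left out. The count below, 2 in the main fit, was 1 with the length trend removed, 3 with library-size scaling (FANCC, RNF8 and XRCC3, without CHEK1), 4 in each of the 3 FPKM settings, and 2 to 7 with a library left out. Shares over all genes were taken for the main fit (5.29% above, 4.89% below) and without control 2 (12.6% and 12.1%). They were not taken for the other settings, so those counts have no background. Over all genes the number called was 0 in the main fit, 18 by DESeq2, 19 by DESeq2 on the recovered reads, 0 to 1 by edgeR with a library left out (1 without control 2) and 1 to 155 by DESeq2 with a library left out (155 without control 2, 15 without control 1, 4 without control 3, and 1, 39 and 4 without bile acid libraries 1, 2 and 3). The proliferation list had 0 calls, and 0 to 1 by DESeq2 with a library left out, and its median of 0.18 ran from 0.10 to 0.24 (edgeR) or from 0.10 to 0.25 (DESeq2) with a library left out. With the replicate block 0 of the 41 genes and 0 of all genes were called, and the median log2 fold change of the 41 was 0.04. Correlation with the same number was the highest for controls 1 and 2, while control 3 went more with bile acid library 1 (0.19). The fewest reads were those of FANCF, 181 to 270 per library, and RAD50, 84 to 369. Causes of these shifts were not tested.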

Other observations

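Of the listed pathway genes that were not tested, NHEJ1 and SLX1A share most of their exonic bases with another gene on the same strand. NHEJ1, a scaffold of end joining, had 16 reads in the 6 libraries, 9 of them in control 2, at a share of 65.4%. SLX1A, a nuclease subunit, had 3 reads at a share of 86.2%.

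Ratios between partners were taken per length from FPKM, and in each pair the groups overlapped. XRCC5 was 0.390, 0.225 and 0.399 times XRCC6 in controls and 0.427, 0.357 and 0.360 times in bile acid libraries. CHEK1 was 5.08, 2.23 and 4.88 times CHEK2 in controls and 3.58, 3.20 and 3.38 times in bile acid libraries, where the bile acid libraries lay between control 2 and the other controls. BRCA1 was 1.72 to 2.38 times BARD1 in controls and 1.81 to 2.13 times in bile acid libraries. ATR was 1.01, 0.390 and 0.768 times ATRIP in controls and 1.09, 0.570 and 1.01 times in bile acid libraries, lowest in replicate 2 of both groups.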
